A study of Mus musculus with 2 samples.

Results

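Mpo, Elane, Prtn3 and Ctsg are the 4 genes described here, of 42422 gene rows in the table of foetal mouse gonadal somatic cells. Mpo encodes myeloperoxidase, and Elane, Prtn3 and Ctsg encode the serine proteases neutrophil elastase, proteinase 3 and cathepsin G. They were chosen by name, because in these same data Mpo and Elane were higher at 72 h of culture and differed between MEK and FGF receptor inhibition, so those differences are given below as descriptions without a test. Of the 4 genes, 3 passed the filter on low counts that precedes the tests, and Ctsg did not.

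Testes (XY) or ovaries (XX) of wild-type E12.5 embryos from ASMU Swiss by Oct4-eGFP mice (129svJT2 background) were taken before culture (0 h) or cultured with the mesonephros attached for 24 or 72 h. All 4 libraries of each of the 10 groups came from separate pools of gonads, from which the mesonephros was removed and GFP-negative cells were sorted, so that germ cells carrying the GFP transgene were left out. XX and XY gonads were sampled uncultured and after culture in DMSO (vehicle), and XY gonads were also cultured with 500 nM BGJ398 (FGFRi) or 500 nM PD0325901 (MEKi), each for 24 or 72 h. The sort removes germ cells but selects no somatic cell type, so blood cells held by the tissue could enter every library, and the labels name neither neutrophils nor any other blood cell. Total counts ranged from 1380707 to 4836550 per library. The 0 h, 24 h DMSO and 24 h MEKi libraries formed 1 sequencing set, and the 24 h FGFRi and all 72 h libraries formed another. The change from 24 to 72 h in DMSO and MEKi, and FGFRi against DMSO at 24 h, therefore cannot be told apart from sequencing set, whereas the change from 0 to 24 h in DMSO, XX against XY at each time and all comparisons at 72 h lie within a set.

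Neutrophils are made from granulocyte and monocyte progenitors, and their granules form in sequence. Primary (azurophil) granules are filled at the promyelocyte stage, when Mpo, Elane, Prtn3 and Ctsg are transcribed, whereas secondary granule genes such as Ltf and Camp are switched on later, as the primary granule genes are turned off. In the mouse foetus this takes place mainly in the liver. Transcripts of the primary granule genes in a tissue are therefore usually read as a sign of immature myeloid cells, and in bulk RNA fewer such cells and less RNA per cell cannot be told apart.

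In GRCm39, Prtn3 (chr10:79710310-79719008) and Elane (chr10:79722081-79724051) lie next to each other on the plus strand with 3072 bases between them. Mpo lies on the plus strand at chr11:87684407-87695239, and Ctsg on the minus strand at chr14:56337338-56340031, beside the mast cell protease gene Mcpt8 and the granzyme gene Gzme. Mpo overlaps a long noncoding RNA gene (Gm11505) and Prtn3 overlaps Plppr3, both on the opposite strand, and counting used strand. The canonical transcripts of GENCODE M39 have 14 exons in Mpo and 5 in each of the other genes.

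The 250 bases before the start of each canonical transcript are shown so that the sequences just upstream of the 4 granule genes can be compared. Capitals mark matches, on either strand, to short motifs named for the myeloid regulators PU.1 (GAGGAAGT), C/EBP (TTNCNNAA), MYB (AACNGT) and RUNX1 (TGTGGT). The windows are chr11:87684157-87684406 on the plus strand for Mpo, chr10:79721831-79722080 on the plus strand for Elane, chr10:79715198-79715447 on the plus strand for Prtn3, and chr14:56340032-56340281 on the minus strand for Ctsg.
Mpo: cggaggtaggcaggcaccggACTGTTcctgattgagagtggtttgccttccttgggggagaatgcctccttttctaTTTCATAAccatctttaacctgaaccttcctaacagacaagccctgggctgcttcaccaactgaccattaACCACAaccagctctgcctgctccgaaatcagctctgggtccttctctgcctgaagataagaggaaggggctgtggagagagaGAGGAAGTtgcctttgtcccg
Elane: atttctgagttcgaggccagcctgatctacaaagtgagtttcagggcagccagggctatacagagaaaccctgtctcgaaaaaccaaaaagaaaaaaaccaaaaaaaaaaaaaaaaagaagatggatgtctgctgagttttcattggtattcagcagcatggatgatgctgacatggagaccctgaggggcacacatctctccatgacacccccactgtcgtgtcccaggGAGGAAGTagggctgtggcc
Prtn3: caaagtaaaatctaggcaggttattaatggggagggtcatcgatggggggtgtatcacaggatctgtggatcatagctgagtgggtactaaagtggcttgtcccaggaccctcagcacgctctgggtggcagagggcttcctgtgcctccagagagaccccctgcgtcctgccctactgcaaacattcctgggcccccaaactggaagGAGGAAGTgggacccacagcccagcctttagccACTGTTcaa
Ctsg: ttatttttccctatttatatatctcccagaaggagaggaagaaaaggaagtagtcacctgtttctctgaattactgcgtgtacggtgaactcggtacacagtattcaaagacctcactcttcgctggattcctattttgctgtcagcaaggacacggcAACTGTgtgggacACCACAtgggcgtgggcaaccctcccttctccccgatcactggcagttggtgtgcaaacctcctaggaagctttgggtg

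The letters GAGGAAGT occurred in Mpo, Elane and Prtn3, on the coding strand and ending 14, 13 and 35 bases before the start, and not in the Ctsg window. They occurred in 2.08% of 21770 protein-coding gene windows of the same length. The MYB letters were found in Mpo, Prtn3 and Ctsg (21.7% of windows), the RUNX1 letters in Mpo and Ctsg (13% of windows) and the C/EBP letters in Mpo alone (36.9% of windows). None of the 4 windows held TATAAG, which 5.85% of windows held. These matches describe the letters only.

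Before culture all 4 genes were low, and Elane and Ctsg were at or near the limit of detection. Levels are given as counts per 1000000 counts (CPM), scaled by the trimmed mean of M-values. Mpo was counted in every uncultured library, at 1.28, 1.33, 3.87 and 3.02 CPM in XX and 9.23, 4.55, 4.78 and 3.04 CPM in XY. Prtn3 was also counted in every uncultured library, at 1.88 to 4.27 CPM in XX and 1.91 to 2.28 CPM in XY. Elane was at 0 in 3 of 4 libraries of each sex, with 5 counts in the remaining XX library and 4 in the remaining XY library. Ctsg had no count in any of the 8 uncultured libraries, nor in the 4 XX libraries at 24 h.

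**Figure D1:**
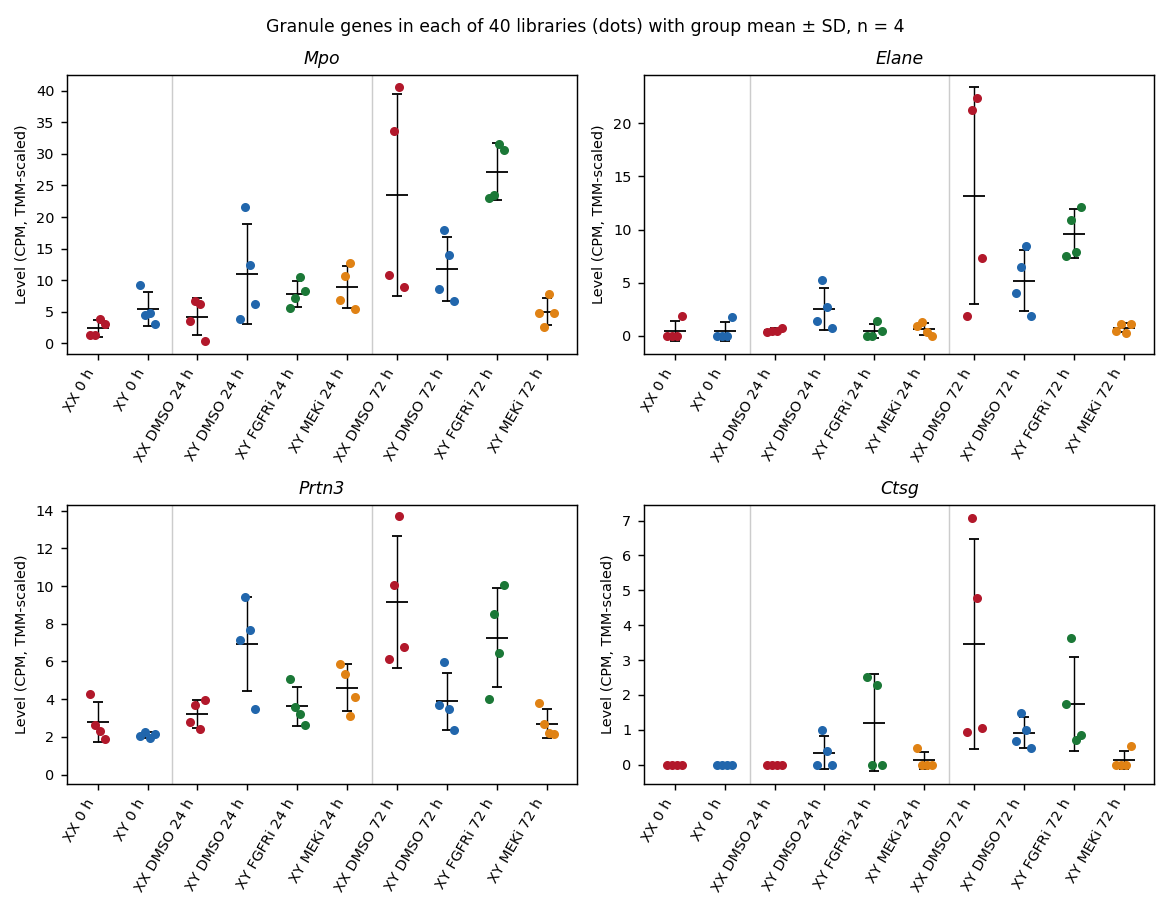
Levels of Mpo, Elane, Prtn3 and Ctsg (CPM, linear axes that differ between panels) in each of the 40 libraries, by group. Dots are libraries, bars the mean with SD of 4 libraries, and grey lines part 0, 24 and 72 h. At 72 h the XX DMSO and XY FGFRi groups held the highest means of every gene, and the XY MEKi group the lowest of the 72 h groups.

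At 72 h the groups spread apart. Mpo was measured at 10.8, 33.7, 40.5 and 8.88 CPM in the XX DMSO libraries. In the XY DMSO libraries it was at 8.66, 17.9, 14.0 and 6.66 CPM. With FGFRi it was at 23.0, 23.5, 31.5 and 30.6 CPM, all above the XY DMSO libraries. With MEKi it was at 4.74, 2.68, 7.85 and 4.85 CPM, all below the FGFRi libraries and overlapping only the lowest XY DMSO library. In order of mean Mpo the 10 groups ran from XY FGFRi at 72 h through XX DMSO at 72 h and XY DMSO at 72 and 24 h down to uncultured XX, and each neighbouring pair in that order overlapped and differed by less than the larger SD of the pair. At 72 h the XX DMSO group was the most uneven, with 2 libraries near the XY DMSO level and 2 above the highest FGFRi library.

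Elane, which encodes the elastase stored beside myeloperoxidase, was highest in the same 2 groups at 72 h, with fewer counts. It was measured at 1.88, 21.3, 22.4 and 7.31 CPM in XX DMSO, and the 2 XX libraries that were high for Mpo (F4 and F7) were also high for Elane. In XY DMSO it was at 4.00, 6.46, 8.48 and 1.90 CPM. With FGFRi it was at 7.49, 10.9, 7.88 and 12.2 CPM, above 3 of the 4 XY DMSO libraries. With MEKi it was at 0.474, 1.15, 0.314 and 1.08 CPM, below every library of the other groups at 72 h.

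The MEKi and FGFRi libraries did not overlap for any of the 4 genes at 72 h. The share of all genes whose libraries do not overlap was not counted, in this or any other comparison, so the lack of overlap is a description only. By a different measure, 6.43% of the 15125 genes tested were called in this comparison. Called means an edgeR false discovery rate (FDR) below 0.05 and a difference of at least 1.5-fold. MEKi-treated gonads averaged 5.03 ± 2.13 CPM of Mpo and FGFRi-treated gonads 27.2 ± 4.52 CPM (SD, n = 4), a log2 difference of -2.40 (SE 0.435). For Elane the means were 0.753 ± 0.421 and 9.62 ± 2.29 CPM, a log2 difference of -3.65 (SE 0.716). Since Elane rested on 7 counts in all with MEKi and 91 with FGFRi, the ratio of FGFRi to MEKi counts was 13.8 with a 95% exact interval of 6.44 to 35.3, which covers counting error only. Prtn3 averaged 2.71 ± 0.761 CPM with MEKi and 7.26 ± 2.62 CPM with FGFRi, a log2 difference of -1.44 (SE 0.384). Ctsg had 1 count with MEKi and 16 with FGFRi, a ratio of 17.0 with an interval of 2.64 to 713.

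Set against the XY DMSO libraries of the same time, the inhibitors lay on opposite sides. With FGFRi the log2 differences from DMSO were 1.23 (SE 0.395) for Mpo, 0.90 (SE 0.539) for Elane and 0.93 (SE 0.368) for Prtn3. With MEKi they were -1.17 (SE 0.472) for Mpo, -2.74 (SE 0.767) for Elane and -0.52 (SE 0.418) for Prtn3. The FGFRi and DMSO libraries were apart for Mpo and overlapped for Elane, Prtn3 and Ctsg. The MEKi and DMSO libraries were apart for Elane and overlapped for the other 3 genes. In all, 1.8% of tested genes were called for FGFRi against DMSO and 6.47% for MEKi against DMSO at 72 h. These comparisons share the DMSO libraries, and they are descriptions because the genes were chosen for them.

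The earlier time point differed from the later one. At 24 h Mpo was measured at 3.92, 21.6, 12.5 and 6.22 CPM in XY DMSO, at 5.56, 7.14, 10.5 and 8.30 CPM with FGFRi and at 6.85, 10.6, 12.7 and 5.47 CPM with MEKi, so that the 3 groups overlapped. At 24 h Mpo averaged 8.90 ± 3.33 CPM under MEKi against 11.1 ± 7.91 CPM in DMSO (SD, n = 4), and edgeR gave a log2 fold change of -0.36 (SE 0.423, FDR 0.762). For Elane the log2 fold change of MEKi against DMSO at 24 h was -2.10 (SE 0.854, FDR 0.178), from 5 counts in all with MEKi and 41 with DMSO. For Prtn3 it was -0.65 (SE 0.353, FDR 0.367). With only these groups in the fit, Elane was too low to be tested. None of the 3 genes was called by edgeR or by DESeq2, where 3.27% of tested genes were called by edgeR, and 1 of them (Elane) had an unadjusted p below 0.05. With FGFRi at 24 h the log2 differences from DMSO were -0.54 for Mpo (SE 0.434), -2.34 for Elane (SE 0.894) and -0.97 for Prtn3 (SE 0.367), across the 2 sequencing sets. FGFRi libraries thus averaged below DMSO at 24 h and above DMSO at 72 h for these 3 genes. Ctsg went the other way at 24 h, with 10 counts in FGFRi, 5 each in 2 of the 4 libraries, and 6 in DMSO.

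The higher level at 72 h than at 24 h held in some groups and not in others. In XX DMSO gonads the log2 differences between 72 and 24 h were 2.45 for Mpo (SE 0.440), 4.54 for Elane (SE 0.711) and 1.5 for Prtn3 (SE 0.357). The libraries of the 2 times did not overlap, and how many of all genes share this was not counted. Ctsg went from 0 counts to 32 counts over the 4 XX libraries, which is at least 13.4-fold against a floor of 3 counts over the group. With FGFRi, the only treatment with both times in 1 sequencing set, the log2 differences were 1.78 for Mpo (SE 0.420), 4.17 for Elane (SE 0.793) and 1.03 for Prtn3 (SE 0.378). In XY DMSO gonads Mpo was at the same mean level at both times (11.8 ± 5.10 and 11.1 ± 7.91 CPM, SD, n = 4), and its log2 difference was 0.01 (SE 0.415). There Elane had a log2 difference of 0.92 (SE 0.583) and Prtn3 one of -0.87 (SE 0.356). With MEKi the log2 differences were -0.80 for Mpo (SE 0.490), 0.28 for Elane (SE 1.10) and -0.73 for Prtn3 (SE 0.414).

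Over the first day in DMSO the changes in XY and XX were not tested against each other. From 0 to 24 h the log2 differences in XY were 1.10 for Mpo (SE 0.465), 2.34 for Elane (SE 0.894) and 1.73 for Prtn3 (SE 0.402). In XX they were 0.94 for Mpo (SE 0.629), -0.12 for Elane (SE 1.11) and 0.22 for Prtn3 (SE 0.421). The Elane values rested on 1 uncultured library of each sex, being 5.73 in XY without M6 and 3.47 in XX without F5. The XY libraries at 24 h were uneven, with Mpo, Elane and Ctsg highest in library M3 and Mpo, Elane and Ctsg next highest in M4.

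XX and XY gonads in DMSO differed in opposite directions at 24 and 72 h. This comparison was not itself used to choose the genes. The same 24 and 72 h libraries gave the change over time that was, so its FDRs are not independent of that choice. At 24 h Mpo averaged 4.22 ± 2.91 CPM in XX and 11.1 ± 7.91 CPM in XY (SD, n = 4), a log2 fold change of -1.40 (SE 0.450, edgeR FDR 0.0149). Elane averaged 0.530 ± 0.186 CPM in XX and 2.53 ± 1.96 CPM in XY, a log2 fold change of -2.25 (SE 0.806, FDR 0.0309). It had 6 counts in all in XX and 41 in XY, and passed the filter through its levels at 72 h. With only these groups in the fit, Elane was too low to be tested, so its call at 24 h carries little weight. Prtn3 averaged 3.22 ± 0.730 CPM in XX and 6.93 ± 2.49 CPM in XY, a log2 fold change of -1.10 (SE 0.352, FDR 0.0142). All 3 genes were called lower in XX, as were 10.3% of all genes tested at 24 h. The libraries of the sexes overlapped for each of the 3 genes. Some other blood genes were lower in XX at 24 h as well, but not those of later neutrophil stages, described below. All 6 of these that were tested had log2 fold changes above 0 (median 0.79). Of 11 erythroid genes tested, 8 were called lower (median log2 fold change -1.96), with a summed level of 975 to 2227 CPM in XX and 2757 to 8086 CPM in XY. The sum of 10 genes shared by white blood cells was 30.0 to 42.4 CPM in XX and 46.7 to 79.3 CPM in XY. Their part in the differences of the granule genes was not tested. An exact two-sided permutation test of the CPM values gave p = 0.2 for Mpo, 0.0571 for Elane and 0.0857 for Prtn3, where 4 against 4 libraries cannot go below 0.0286.

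At 72 h the same 3 genes were called higher in XX, as were 9.47% of all genes tested. The log2 difference of Mpo between 72 and 24 h, which the choice used, was 2.45 in XX DMSO and 0.01 in XY DMSO. These calls are therefore not independent of the choice. Mpo averaged 23.5 ± 16 CPM in XX and 11.8 ± 5.10 CPM in XY, a log2 fold change of 1.04 (SE 0.398, edgeR FDR 0.0428). Elane averaged 13.2 ± 10.2 CPM in XX and 5.21 ± 2.87 CPM in XY, a log2 fold change of 1.37 (SE 0.529, FDR 0.0447). Prtn3 averaged 9.16 ± 3.48 CPM in XX and 3.88 ± 1.51 CPM in XY, a log2 fold change of 1.27 (SE 0.361, FDR 0.00537), and its XX libraries all lay above its XY libraries. The exact two-sided permutation test gave p = 0.286 for Mpo, 0.286 for Elane and 0.0286 for Prtn3, the last being the smallest p it can give. Ctsg, which was not tested by edgeR, had 32 counts in XX and 8 in XY, a ratio of 3.99 with a 95% exact interval of 1.80 to 10.0 for counting error only, and the exact permutation p was 0.171. Before culture none of the 3 genes was called by edgeR between XX and XY (Mpo log2 fold change -1.24, SE 0.640, FDR 0.172), where 17.3% of tested genes were called, and none had an unadjusted p below 0.05 or was called by DESeq2.

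The change in the XX to XY difference between 24 and 72 h is the same quantity as the difference between the sexes in their change over time. Since the genes were chosen partly for that change, it is given as a description without a test. It was 2.44 on the log2 scale for Mpo (SE 0.601), 3.62 for Elane (SE 0.961) and 2.37 for Prtn3 (SE 0.504). Since both sexes were in 1 sequencing set at 24 h and in the other at 72 h, each XX to XY difference was taken within a set.

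These calls rested on few libraries. At 72 h the Mpo call was lost without XX library F4 or F7 or XY library M2 or M6, with log2 fold changes of 0.86, 0.58, 0.90 and 0.85. The Elane call at 72 h was lost without F4, F7, M2, M4 or M6 (1.09, 0.94, 1.25, 1.49 and 1.10), and the Prtn3 call without F7 (0.97, FDR 0.0706). At 24 h the Mpo call was lost without XX library F9 or XY library M3 (-1.07 and -0.88), the Elane call without F4, F5, F6 or M3 (-2.11, -2.21, -2.24 and -1.67), and the Prtn3 call without M3 (-0.92, FDR 0.0728). With DESeq2 the Mpo and Elane calls at 72 h were lost (adjusted p = 0.139 and 0.0727), and limma's voom with treat, which tests against a 1.5-fold change, called none of the 3 genes at 24 or 72 h.

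**Figure D2:**
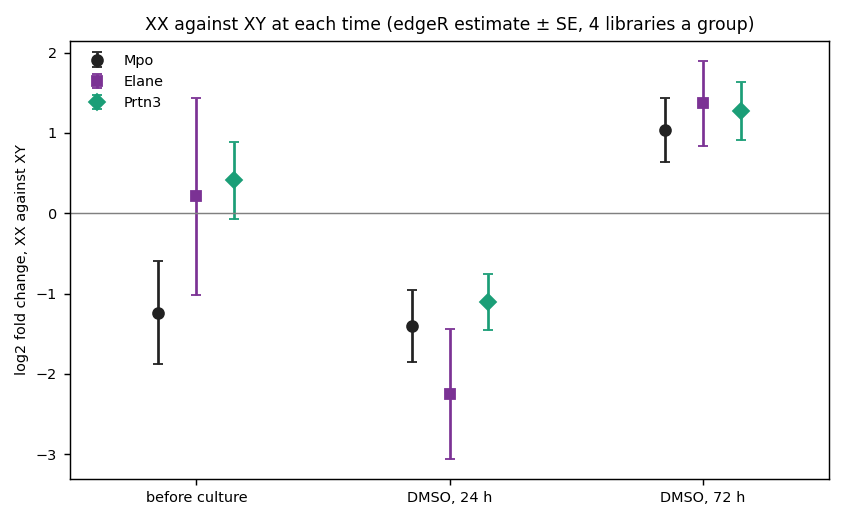
Log2 fold change of XX against XY (edgeR estimate with its SE, 4 libraries a group) before culture and at 24 and 72 h in DMSO, for Mpo, Elane and Prtn3. All 3 genes lie below 0 at 24 h and above 0 at 72 h. Before culture Elane rests on 5 counts in XX and 4 in XY.

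The median change of genes of later neutrophil stages from 24 to 72 h was upward in both DMSO groups and with both inhibitors. Of a list of 16 later neutrophil genes, 15 were in the table and 6 passed the filter, namely S100a8 and S100a9 (the calprotectin subunits), Ngp, Camp and Ltf (secondary granule proteins) and Lcn2 (lipocalin 2). From 24 to 72 h all 6 rose in XY DMSO, with a median log2 fold change of 3.40 where the median of all tested genes was 0.00. This comparison spans the 2 sequencing sets, as do those of XX DMSO and MEKi. The filter ran over all 40 libraries, so a gene high only at 72 h could pass it, which favours a rise in this list. In XX DMSO 5 of 6 rose (median 3.05), and with FGFRi 6 of 6 rose (median 5.14). With MEKi 1 of 6 rose, S100a8, the median was 1.86, and 5 had an unadjusted p below 0.05, all higher at 72 h. The summed level of the 15 genes was 5.48 to 33.7 CPM at 24 h and 47.0 to 78.2 CPM at 72 h with MEKi, without overlap. The share of all tested genes called higher at 72 than at 24 h was 4.24% in XY DMSO, 4.97% in XX DMSO, 4.38% with FGFRi and 5.86% with MEKi. In XY DMSO S100a8 went from a mean of 5.76 to 75.9 CPM (log2 fold change 3.50, SE 0.518, edgeR FDR 1.84e-06), in the group in which Mpo had the same mean at both times. Whether the list and Mpo differ in their change was not tested. With only the groups compared in the fit, 3 of the 6 were called in XY DMSO, and by limma's voom with treat none was called in either DMSO group.

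Between the inhibitors at 72 h, the later neutrophil genes lay on the same sides as Mpo and Elane. With MEKi, 5 of 6 fell against FGFRi, with a median log2 fold change of -2.17 against 0.01 for all tested genes, where 4.69% of tested genes were called lower. MEKi-treated gonads averaged 29.5 ± 6.32 CPM of S100a8 and FGFRi-treated gonads 121 ± 47.7 CPM (SD, n = 4), a log2 fold change of -2.05 (SE 0.446, edgeR FDR 0.00115). Ngp fell by 2.68 on the log2 scale (SE 0.526, FDR 0.000275), and Lcn2 did not pass (log2 fold change -1.59, FDR 0.0791). DESeq2 called 2 of the 6 lower, and limma's voom with treat 1. Against DMSO at 72 h, edgeR called 1 of 6 lower with MEKi, S100a8 (log2 fold change -1.40, SE 0.453, FDR 0.0356), and DESeq2 called none. By edgeR 4.19% of all tested genes were called lower there. With MEKi 4 of the 6 had an unadjusted p below 0.05, all 4 lower, and the median log2 fold change was -1.36. None was called with FGFRi by edgeR or DESeq2. With FGFRi 3 of the 6 had an unadjusted p below 0.05, all 3 higher, and the median log2 fold change was 1.10.

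**Figure D3:**
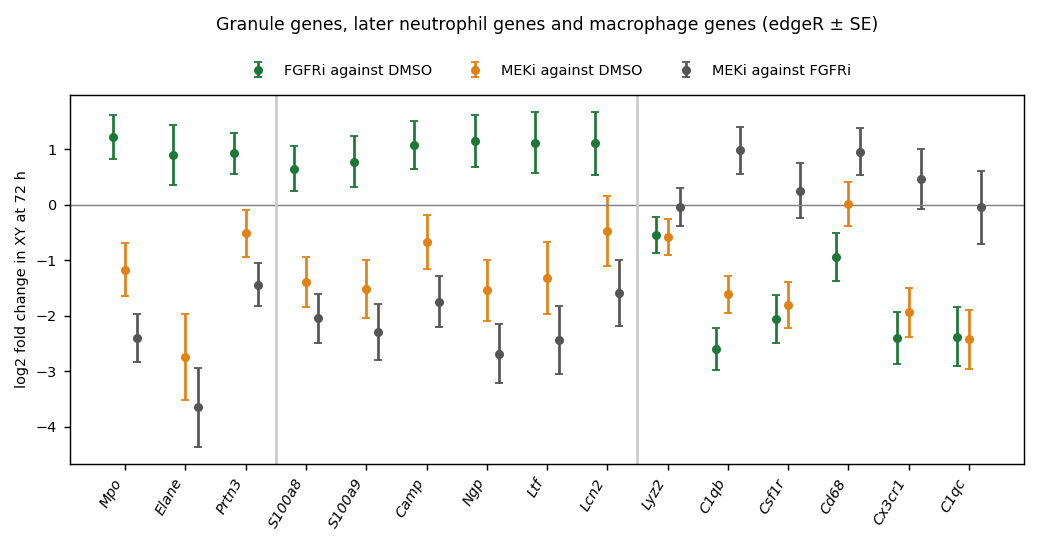
Log2 fold changes (edgeR estimate with its SE, 4 libraries a group) in XY gonads at 72 h for 3 primary granule genes, 6 later neutrophil genes and 6 macrophage genes, for FGFRi against DMSO, MEKi against DMSO and MEKi against FGFRi. In the left and middle blocks the FGFRi points lie above 0 and the MEKi points below 0. In the right block both lie below 0 against DMSO except MEKi for Cd68.

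Between XX and XY in DMSO, no later neutrophil gene was called at 72 h by edgeR or DESeq2 (median log2 fold change 0.88, 1 gene with an unadjusted p below 0.05). At 24 h 1 of 6, Lcn2, was called higher in XX, and all 6 had log2 fold changes above 0 (median 0.79). Several other genes of the list were close to the limit of detection, with 8 counts of Ly6g, 38 of Mmp8, 40 of Cxcr2, 43 of Cd177 and 45 of Retnlg over all 40 libraries. Mmp9 with 111 counts and Wfdc21 with 96 were higher but did not pass the filter either.

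The summed level of 12 other promyelocyte genes at 72 h was 102 to 162 CPM in XX DMSO and 87.6 to 131 CPM in XY DMSO. It was 107 to 134 CPM with FGFRi and 127 to 154 CPM with MEKi, whose mean was the highest of the 72 h groups, unlike the granule genes. Of this list 6 genes passed the filter, among them Fcnb (ficolin B). Fcnb averaged 8.26 ± 4.71 CPM in XX DMSO, 5.43 ± 4.36 in XY DMSO, 5.75 ± 2.21 with FGFRi and 1.17 ± 1.5 with MEKi at 72 h (SD, n = 4). From 24 to 72 h 5 of 6 rose in XX DMSO (Fcnb, Hp, Srgn, Ctsc and Serpinb1a), 2 with FGFRi (Fcnb and Hp), 1 in XY DMSO (Fcnb) and 1 with MEKi (Ctsc), where 4.97%, 4.38%, 4.24% and 5.86% of all tested genes rose. The limits of filter and sequencing set given for the later neutrophil genes hold here too. For MEKi against FGFRi none was called lower by edgeR, 1 was called lower by DESeq2, 2 had an unadjusted p below 0.05 in that direction, and Serpinb1a, a protease inhibitor, was called higher. Serpinb1a, Ctsc and Plac8 were also counted at 7.45 CPM or more on average in every group, and other cells express them. Prss57 and Ms4a3, which are more restricted to these precursors, had 55 counts each over 40 libraries. Of 12 myeloid regulator genes 4 passed the filter (Csf2ra, Runx1, Irf8 and Cebpa), and none was called between MEKi and FGFRi at 72 h by edgeR or DESeq2 or had an unadjusted p below 0.05. Runx1 was higher in XX than in XY at 72 h and Cebpa lower, and both are also expressed outside blood. Spi1, which encodes PU.1, had 159 counts in all, Cebpe had 109, Csf3r 43 and Gfi1 10.

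Macrophage genes did not share the pattern of the granule genes under the inhibitors. Of 12 macrophage genes tested, 7 fell with FGFRi against DMSO at 72 h (median log2 fold change -2.24) and 7 fell with MEKi (median -1.71), where 0.939% and 4.19% of all tested genes were called lower. Csf1r, which encodes the receptor for macrophage colony-stimulating factor, fell by 2.05 (SE 0.429, edgeR FDR 0.0036) with FGFRi and by 1.80 (SE 0.415, FDR 0.00259) with MEKi on the log2 scale. No macrophage gene was called between MEKi and FGFRi by edgeR or DESeq2, and 4 had an unadjusted p below 0.05, all higher with MEKi. The summed level of the 16 macrophage genes was 86.6 to 274 CPM in XY DMSO, 56.2 to 83.9 CPM with FGFRi and 65.7 to 111 CPM with MEKi at 72 h. In XX DMSO it was 47.0 to 222 CPM. With only the groups compared 4 fell with FGFRi, and by limma's voom with treat no macrophage gene was called lower with either inhibitor.

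**Figure D4:**
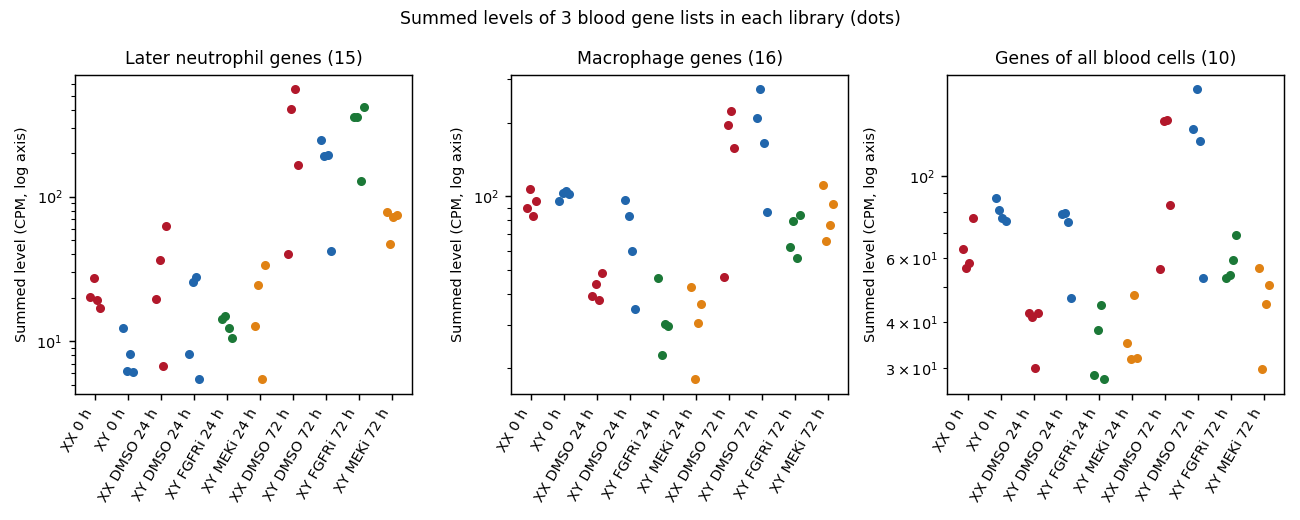
Summed levels (CPM, log axis) of later neutrophil genes, macrophage genes and genes shared by white blood cells in each of the 40 libraries (dots), by group. The white blood cell list is the panel headed genes of all blood cells. At 72 h the later neutrophil sum was 128 to 415 CPM with FGFRi and 47.0 to 78.2 CPM with MEKi, without overlap, while the macrophage sums of those groups overlapped.

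Genes shared by white blood cells moved with some of these results. The summed level of 10 such genes, among them Ptprc (CD45), Laptm5 and Lcp1, was 52.8 to 173 CPM in XY DMSO, 53.0 to 69.2 CPM with FGFRi, 29.8 to 56.4 CPM with MEKi and 55.9 to 143 CPM in XX DMSO at 72 h. Of 9 tested, 6 fell with MEKi and 2 with FGFRi against DMSO, and 2 fell with MEKi against FGFRi, where 4.19%, 0.939% and 4.69% of all tested genes fell. The sum overlapped between the sexes at 72 h, with 1 of 9 genes higher in XX (Arhgdib) and 1 lower (Cytip). The part of white blood cell content in the differences of the granule genes was not tested. Expressed as a percentage of this sum, a scale chosen after the values were seen, Mpo was at 43.5 to 53.3% with FGFRi, 6.45 to 12.6% in XY DMSO, 8.40 to 17.5% with MEKi and 10.6 to 28.5% in XX DMSO at 72 h. Elane was at 13.3 to 20.3%, 2.98 to 6.77%, 0.699 to 3.85% and 3.36 to 15.7% in the same groups. On that scale the FGFRi libraries lay above those of the other XY groups for both genes, and the MEKi and XY DMSO libraries overlapped. Since Fcer1g and Laptm5, both in the sum, were called lower with FGFRi than with DMSO, the percentage reflects the sum as well as the granule genes.

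Among markers of other blood lineages, erythroid genes were abundant before culture and lower at 72 h. The erythroid sum was 8945 to 15934 CPM in XX and 15321 to 19407 CPM in XY before culture, and 142 to 602 CPM in XX DMSO and 317 to 1734 CPM in XY DMSO at 72 h. Between the inhibitors at 72 h, 2 of 11 erythroid genes (Hba-a1 and Hba-a2) were called lower with MEKi than with FGFRi, where 4.69% of all tested genes were. The erythroid median log2 fold change was -0.92, on the same side as the granule genes. Against DMSO the erythroid median was -1.07 with MEKi. There edgeR called 1 of 11 genes lower (Hba-a2), beside 4.19% of all tested genes, and DESeq2 called none. At an unadjusted p below 0.05, 2 genes were lower with MEKi. With FGFRi the median was 0.27, with none called by edgeR or DESeq2 and 1 gene lower at an unadjusted p below 0.05. For XX against XY at 72 h the erythroid median was -1.31 (range -2.88 to 1.72), where the granule genes were called higher in XX. The part of erythroid content in these results was not tested. Of the 11 mast cell, basophil and eosinophil genes in the table, only Gata2, which other cells express, passed the filter. Prg2 had 139 counts over all 40 libraries, Cpa3 82 and Epx 53, while Mcpt8 had 3 and Fcer1a and Prss34 had none. The gonadal genes Wt1, Nr5a1, Gata4, Sox9, Pdgfra and Foxl2 made up most of a somatic sum of 966 to 1698 CPM over all libraries, so the labelled tissue was present in each library. The germ cell sum (Dazl, Ddx4 and others) was 8.64 to 254 CPM and highest with MEKi at 24 h.

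Of the protein-coding genes beside the granule genes, 5 others were counted at over 1 CPM on average, and their differences were not tested. Plppr3, which overlaps Prtn3 on the opposite strand, averaged 54.7 CPM in XX DMSO, 69.9 CPM in XY DMSO, 46.5 CPM with FGFRi and 90.7 CPM with MEKi at 72 h, so that FGFRi was lowest and MEKi highest. Supt4a averaged 59.8, 43.2, 46.0 and 55.0 CPM in the same groups. Med16, which lies 6487 bases beyond Elane, averaged 38.8 to 52.6 CPM over the groups at 72 h, Ptbp1 averaged 132 to 152 CPM, and Mks1, near Mpo, averaged 9.03 to 10.1 CPM. Misp and Tspoap1 averaged under 1 CPM in every group, which is too low to compare. Lpo, the lactoperoxidase gene 2013 bases from Mpo, had 7 counts over all 40 libraries. Cfd, the gene next to Elane and itself expressed in myeloid cells, had 4 counts, and Gzme and Gzmd beside Ctsg had none.

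Across the 40 libraries the gene whose log2 CPM was most like that of Mpo, of all tested genes, was Elane (Pearson r = 0.75, prior count 2). It was followed by B2m (0.71), Fcnb (0.69), Samd9l (0.69), Ctnna2 (0.69), Gcc1 (0.68), Acsl4 (0.68), Aopep (0.67), Clu (0.67) and Dock5 (0.67). For Elane the closest genes were Fcnb (0.83), S100a9 (0.82), Samd9l (0.79), Ltf (0.79), S100a8 (0.78), Cstdc4 (0.76), Cstdc5 (0.76), Mpo (0.75), Apobec1 (0.75) and Camp (0.75). Of those 10, S100a8, S100a9, Ltf and Camp are later neutrophil genes and Fcnb is a promyelocyte gene. Prtn3 ranked 13 for Elane (0.71) and 20 for Mpo (0.63). With a prior count of 0.5, B2m was the closest to Mpo (0.71) and Elane next (0.68), and Mpo ranked 13 for Elane. These correlations are descriptions over libraries that share groups, sets and time points. Mpo and Elane were chosen together for differences between these same groups, so the correlation between them is not independent of that choice. The library highest in a group was the same for Mpo and Elane in 3 of 10 groups.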

How the data were processed

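Libraries of polyadenylated 3′ ends with unique molecular identifiers were made from FACS-sorted GFP-negative cells, with 4 pools of gonads in each of 10 groups. The authors trimmed barcodes, aligned reads to GRCm39 with Rsubread and deposited raw counts of molecules per gene, counted on the coding strand with scPipe. In their code the 2 lanes were counted separately and added, so a molecule read in both lanes could count 2 times. Of 42422 gene identifiers, 40391 were named from GENCODE M39.

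The deposited counts were fitted with edgeR 4.0.16 (R 4.3.3) in 1 model of 10 group means over all 40 libraries, after filterByExpr (15125 genes) and scaling by the trimmed mean of M-values, with quasi-likelihood F tests and Benjamini-Hochberg adjustment (FDR). A gene was called at FDR below 0.05 and at least 1.5-fold. Exact permutation tests were two-sided. The change in the XX to XY difference between 24 and 72 h was planned as a test and is given as a description, since it is made of the changes over time for which the genes were chosen. The fitting code was tested on simulated data. Ratios of counts carry 95% exact binomial intervals, and these and the floor of 3 counts cover counting error only, since reads are not independent of amplification.

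The genes, gene lists and motifs were chosen with earlier results of these data known. Named from each list were up to 6 genes with the highest mean CPM and any called gene where 5 or fewer were called, besides the 10 genes most correlated with Mpo and with Elane (log2 CPM, prior count 2) and the 2 protein-coding genes on each side of each gene. Genes of the later neutrophil, mast cell and regulator lists given only by their counts over all libraries were chosen after their values were seen. The lists not described further held progenitor, megakaryocyte, lymphoid and endothelial genes. Alternatives were other scalings (RLE, total counts), other filters, DESeq2 1.42.0, limma 3.58.1 (voom with quality weights and treat), glmTreat, only the groups compared, a replicate block and leaving out each library. Replicate numbers are not stated to pair libraries, and correlations of same-numbered deviations ranged from -0.16 to 0.12, so the main fit has no block.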

Additional observations from a re-analysis of the deposited data

Results flagged for a closer look

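The XX to XY difference at 72 h differed from that at 24 h by 2.44 for Mpo, 3.62 for Elane and 2.37 for Prtn3 on the log2 scale. This equals the difference between the sexes in their change from 24 to 72 h, for which the genes were partly chosen, so the values are a description and no test of them is given.

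Single libraries stood apart from the other 3 of their group in 4 of the 37 combinations of gene and group in which libraries varied. In all 4 the other 3 libraries were at 0, so a few counts in 1 library were enough for the flag. Elane was at 1.88 CPM in XX library F5 and at 1.74 CPM in XY library M6 before culture, and at 0 in the other libraries of those groups. Ctsg was at 0.489 CPM in library M1 with MEKi at 24 h and at 0.539 CPM in library M5 with MEKi at 72 h, which is 1 count in each, and at 0 in the others.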

How the results depend on the processing

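The few counts of Elane and Ctsg limit what can be said of either gene. RLE scaling moved no result across its threshold or beyond its spread, and total counts ended 2 calls. Where a call was lost below, the cause was not tested. For XX against XY at 72 h, Mpo was not called with total counts (1.03), DESeq2 (1.00), voom with treat (0.75) or glmTreat (1.04). Elane was not called with total counts (1.36), DESeq2 (1.35), voom (0.93), glmTreat (1.37) or after requiring 1 CPM in at least 4 libraries (1.39), nor Prtn3 with voom (1.17) or glmTreat (1.27). For XX against XY at 24 h, voom and glmTreat called none of Mpo (-1.33 and -1.40), Elane (-1.84 and -2.25) and Prtn3 (-1.10 and -1.10), and Prtn3 was also not called without a filter on low counts (-1.12). The change in the XX to XY difference, a description, was 2.44 for Mpo, 3.62 for Elane and 2.37 for Prtn3 in the main fit. For Mpo it was 2.40 with DESeq2, 2.08 with voom, 2.44 with glmTreat and 2.45 with only the groups compared. For Elane it was 2.77 with voom and 3.62 with glmTreat, and for Prtn3 2.27 with voom. Elane before culture, which was not called, reversed with voom (-0.30).

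With a replicate block, Mpo in MEKi against DMSO at 24 h, not called in either fit, reversed (0.49), and between 72 and 24 h the differences in XY DMSO moved to 0.87 for Mpo, 1.84 for Elane and -0.48 for Prtn3, and that with FGFRi to 3.34 for Elane. Of the tested comparisons of the 3 genes, a block could be fitted only in MEKi against DMSO at 24 h. None of them was called there with or without it, so the block had no call to change. XX and XY share no replicate numbers, so no block could be fitted there. Elane between 72 and 24 h in XX moved to 3.80 with voom, and between 24 and 0 h in XX to 0.75. Later neutrophil genes called lower with MEKi against FGFRi numbered 2 with DESeq2 and 1 with voom. Those called higher at 72 than at 24 h numbered 8 without a filter and 0 with voom in XX DMSO, and 0 with voom, 3 with only the groups compared and 3 with the replicate block in XY DMSO. Macrophage genes called lower with FGFRi against DMSO numbered 0 with voom, 2 with glmTreat, 4 with only the groups compared and 4 with the block, and those lower with MEKi 0 with voom and 4 with glmTreat. With only the groups compared, Elane was too low to be tested in XX against XY at 24 h and in MEKi against DMSO at 24 h.

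Leaving out 1 library at a time gave log2 values of 0.58 to 1.30 for Mpo, 0.94 to 1.73 for Elane and 0.97 to 1.53 for Prtn3 in XX against XY at 72 h, and of -1.81 to -0.88, -2.49 to -1.67 and -1.29 to -0.92 at 24 h. The change in that difference ranged from 1.92 to 2.85 for Mpo and from 3.04 to 3.99 for Elane. Elane in XX against XY before culture ranged from -3.38 to 3.60, and Mpo in MEKi against DMSO at 24 h from -0.63 to 0.16. For Elane the ranges were -3.65 to -1.76 in FGFRi against DMSO at 24 h, 0.60 to 1.5 and 3.81 to 5.48 between 72 and 24 h in XY DMSO and with FGFRi, and 1.76 to 5.73 and -0.54 to 3.47 between 24 and 0 h in XY and XX.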
